A study of Owenia fusiformis with 14 samples.

Results

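*chordin* of the annelid *Owenia fusiformis* was followed through 14 RNA-seq libraries of whole blastulae collected at 6 hours post fertilisation (hpf). The gene was found by its identifier, OFUSG13105, which the study pairs with the name *chordin*. It had 1 transcript, OFUSG13105.1, among the 27040 genes and 31977 transcripts shared by all libraries, so 1 gene and 1 transcript are described here. The transcript is 3952 bases long, and its estimated counts were whole numbers in all 14 libraries, with no fraction of a read divided between transcripts. No sequence and no genome position of the gene were used here.

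Chordin is a secreted antagonist of bone morphogenetic proteins (BMPs). It binds BMP ligands outside the cell and keeps them from their receptors, and it can carry the bound ligand across the embryo before proteases release it. BMP ligands that do reach a type I and type II receptor pair lead to phosphorylation of SMAD1/5/8, and in many animals the balance between ligand and Chordin sets the dorsoventral axis. In fly and vertebrate embryos *chordin* and its fly counterpart are known to be expressed away from the side with the highest BMP signal.

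The libraries fell into 7 groups of 2 replicates. The treated groups were rBMP4 (recombinant zebrafish BMP4, a ligand that adds BMP signal), rActivin A (recombinant Activin A, a ligand of the related Activin/Nodal branch), SB431542 (an inhibitor of the Activin/Nodal type I receptors, at 40 µM) and DMH1 (an inhibitor of BMP type I receptors, at 20 µM). The control groups were mock (the solvent of the ligands), 0.4% DMSO (the solvent of SB431542) and 0.2% DMSO (the solvent of DMH1). SB431542 and 0.4% DMSO were given from 3 to 6 hpf, and the other 5 groups from 4 to 6 hpf. The deposited sample labels write SB435421, while the treatment protocol and the methods write SB431542, and these libraries were taken as SB431542. The ligand doses are given as 1000 ng/µl rBMP4 and 75 ng/µl rActivin A, and another part of the study's supplement gives ng/ml, so their unit is uncertain. All embryos were otherwise untreated, no line or genotype is named, and a library holds the RNA of whole embryos. In such bulk samples fewer cells expressing a gene and less RNA per cell cannot be told apart. No label says that the 2 replicates of a group came from separate cultures, so the p-values measure the spread between these libraries.

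Depth varied widely, with a total of 59915591 estimated counts in the deepest library (DMH1 replicate 1) and 9416563 in the shallowest (rActivin A replicate 2). *chordin* was abundant at every depth. It had 2074 counts in the shallowest library and 25629 in the deepest. The exact Poisson 95% interval of its count had a half-width of at most 4.33% of the count, which covers counting error only. Its rank by TPM, the length-scaled abundance as deposited, ran from 435 in mock replicate 2 to 2149 in both rActivin A libraries. Levels are given below as CPM, counts scaled to a common library size by TMM scaling of all 14 libraries together, with SDs over the 2 replicates, unless TPM is named.

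**Figure D1:**
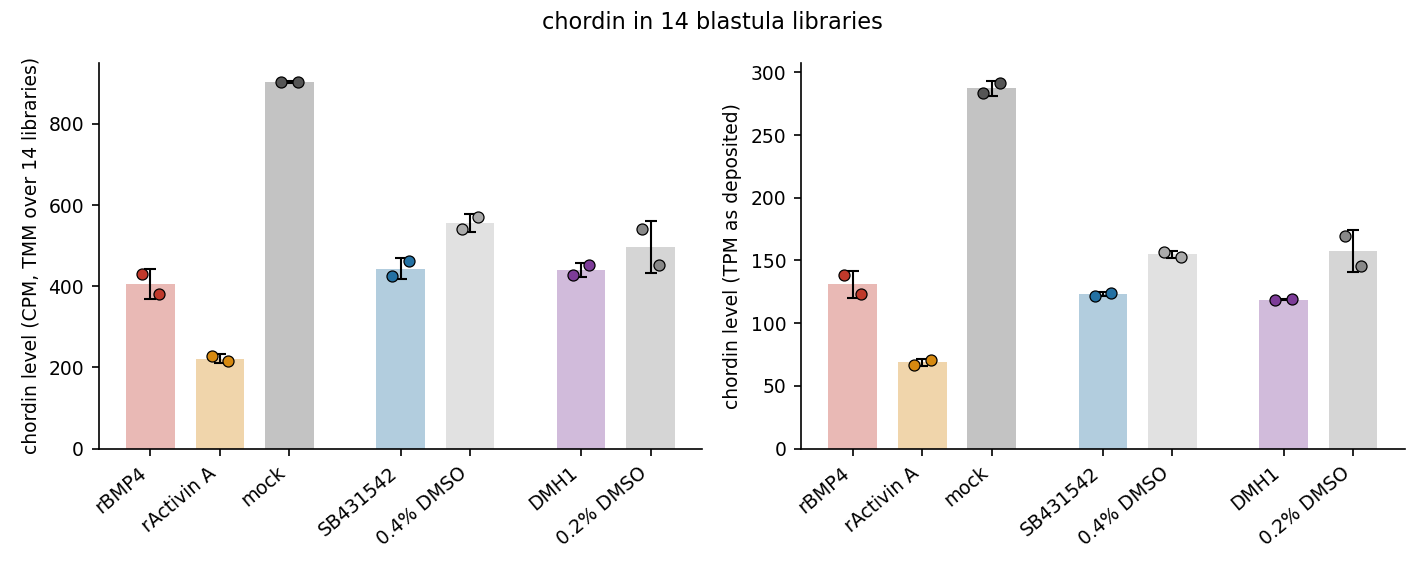
Level of *chordin* in each library, as CPM after TMM scaling (left panel) and as deposited TPM (right panel), with points for the 2 replicates of each group, bars for their mean and error bars for their SD. Both mock libraries stand above all others and both rActivin A libraries below, while the other 5 groups lie between 380 and 571 CPM.

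The level of *chordin* in the mock libraries was well above that in both DMSO controls. It was 542 and 451 CPM in 0.2% DMSO, against 902 and 904 CPM in mock. It was 540 and 571 CPM in 0.4% DMSO, against the same mock values. No library of either DMSO group reached the lower mock library, and on the CPM scale the mock replicates differed by less than any other pair. On the TPM scale they were 283 and 291 TPM, with a larger SD (5.66) than DMH1 (0.456), SB431542 (1.74), 0.4% DMSO (2.85) and rActivin A (2.88).

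In the edgeR quasi-likelihood fit of all 14 libraries, 0.2% DMSO had 1.82-fold less *chordin* than mock (log2 fold change -0.86, SE 0.098, Benjamini-Hochberg adjusted p = 0.000297). The level in 0.4% DMSO was 1.63-fold lower than in mock (-0.70, SE 0.0978, adjusted p = 0.000475). A transcript was called at an adjusted p below 0.05, and by that rule 22.2% of the 24859 transcripts tested were called between 0.2% DMSO and mock and 30.5% between 0.4% DMSO and mock. A call of *chordin* was therefore not rare in these comparisons. Over all transcripts tested, its fold change was among the lowest 18.2% for 0.2% DMSO and the lowest 25.1% for 0.4% DMSO. Of the 2029 transcripts averaging at least 100 CPM, *chordin* ranked 112 from the lowest fold change for 0.2% DMSO and 224 for 0.4% DMSO.

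The difference in *chordin* between the 2 DMSO controls did not pass the test. The fold change of 0.4% DMSO over 0.2% DMSO was 0.16 on the log2 scale (SE 0.0974, 95% interval -0.05 to 0.38, edgeR adjusted p = 0.313), where 13.8% of transcripts were called. The interval still allows a level up to 1.30-fold higher. The replicates of 0.2% DMSO were far apart and enclosed the lower 0.4% DMSO library. Mock differs from the DMSO controls in solvent, and from 0.4% DMSO also in the start of treatment, and these differences cannot be told apart from the control group itself.

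*chordin* fell after rBMP4. Its level was 431 and 380 CPM in rBMP4, against 902 and 904 CPM in mock, and no rBMP4 library reached the mock range. The fold change was -1.15 on the log2 scale (SE 0.0813, 95% interval -1.33 to -0.96), a 2.21-fold lower level, with an edgeR adjusted p of 0.000252. Only 1.08% of the 23432 transcripts tested were called in this comparison, and 0.585% were called lower. The fold change of *chordin* after rBMP4 was among the lowest 4.58% of all transcripts tested, and the 5th lowest of the 2029 abundant transcripts.

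The size of that difference depended on the control. Against 0.4% DMSO the rBMP4 level was 1.37-fold lower (-0.45, SE 0.0977, adjusted p = 0.00546 in the fit of all libraries, where 29.7% of transcripts were called). Against 0.2% DMSO it was 1.22-fold lower (-0.29, SE 0.0975), which missed the threshold with an adjusted p of 0.0591 where 19.9% were called. The groups did not overlap in either case, since the higher rBMP4 library (431 CPM) lay below the lower library of 0.2% DMSO (451 CPM) and of 0.4% DMSO (540 CPM). The call against 0.4% DMSO was lost without rBMP4 replicate 2 (-0.37, adjusted p = 0.0568), with limma on the TPM scale (-0.24, adjusted p = 0.0509 and 0.0536 with pseudocounts of 1 and 0.1) and with a minimum log2 fold change of 1. The difference from 0.2% DMSO became a call without 0.2% DMSO replicate 2 (-0.41, adjusted p = 0.0203), with DESeq2 (0.0185), on library totals (0.0291), on gene sums (0.0254) and with thinned libraries (0.0301). It ranged between -0.41 and -0.15 with 1 library left out, the smallest without 0.2% DMSO replicate 1.

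*chordin* fell further after rActivin A, to the lowest level of the series. Its level was 229 and 215 CPM in rActivin A, against 902 and 904 CPM in mock. That is 4.08-fold lower (log2 fold change -2.03, SE 0.0838, 95% interval -2.22 to -1.84, edgeR adjusted p = 1.09e-05), in a comparison where 29.3% of transcripts were called and 15.9% called lower. Its fold change was among the lowest 8.22% of all transcripts tested, and the 8th lowest of the 2029 abundant transcripts.

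The call after rActivin A held against every control. The rActivin A level was 2.24-fold below 0.2% DMSO (-1.16, SE 0.0992, adjusted p = 9.57e-05, 16.9% called) and 2.50-fold below 0.4% DMSO (-1.32, SE 0.0996, adjusted p = 3.29e-05, 21.2% called). The rActivin A libraries held the shallowest of the series, and with every library thinned to that depth the call against mock remained.

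The direct comparison of the ligands, which share the mock libraries as their control, gave the difference between them. *chordin* was 229 and 215 CPM in rActivin A, against 431 and 380 CPM in rBMP4, with no overlap. The level after rActivin A was 1.84-fold lower (log2 fold change -0.88, SE 0.0816, 95% interval -1.07 to -0.70, edgeR adjusted p = 0.000408), where 27.5% of transcripts were called. The 2 ligands were given at different doses, so this compares the treatments as given.

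**Figure D2:**
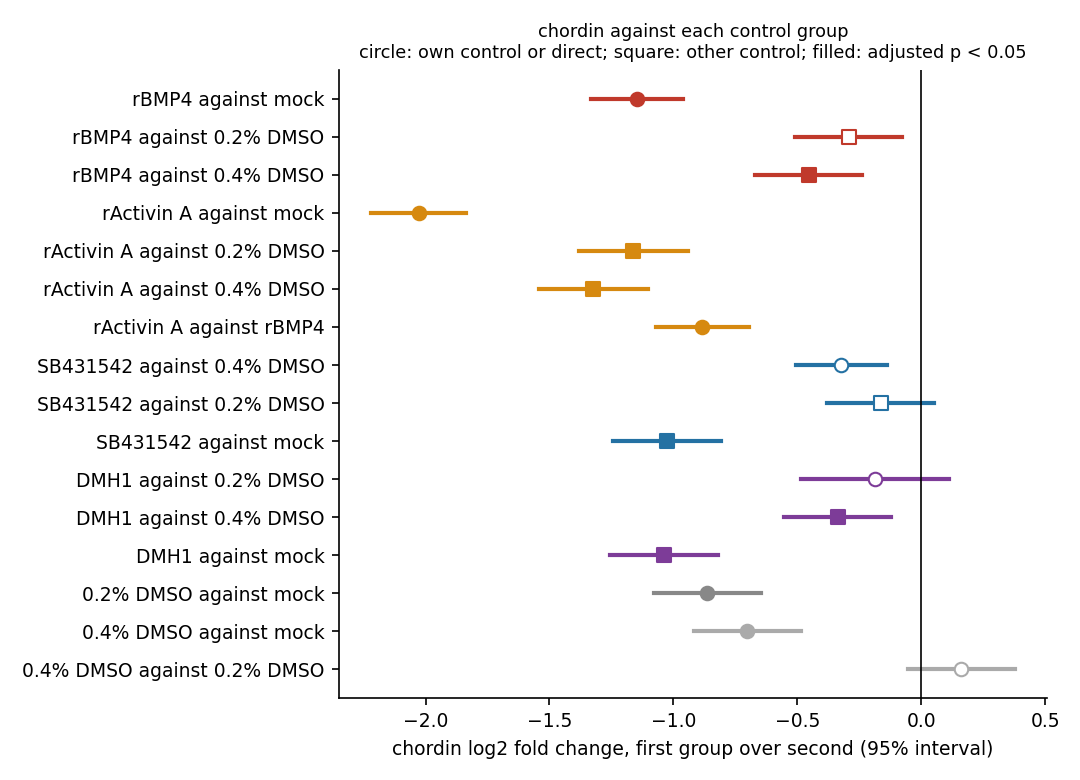
Log2 fold change of *chordin* for each group (first name) over another (second name), with the 95% interval as a line; circles are comparisons with a group's own control or direct comparisons, squares use another control group, and filled symbols passed an adjusted p of 0.05. All comparisons against mock lie between -2.03 and -0.70, while those of rBMP4, SB431542 and DMH1 against DMSO controls lie between -0.45 and -0.16.

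After SB431542 the level of *chordin* was lower than in its own control, but it did not pass the threshold in the edgeR test. It was 426 and 461 CPM in SB431542, against 540 and 571 CPM in 0.4% DMSO, so the groups did not overlap. The fold change was -0.32 on the log2 scale (SE 0.0805, 95% interval -0.51 to -0.14, adjusted p = 0.211), where 0.555% of transcripts were called. DESeq2, which called 1.35%, gave -0.33 with an adjusted p of 0.00553. The 95% interval spans 0.704 to 0.908 times the control level, and the call depended on the tool.

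After DMH1 the difference of *chordin* from its control did not pass the test, and its size depended on the scale. On the CPM scale *chordin* was 427 and 453 CPM in DMH1, against 542 and 451 CPM in 0.2% DMSO, and the higher DMH1 library lay just above the lower control library. On the TPM scale it was 118 and 119 TPM in DMH1, against 170 and 146 TPM in 0.2% DMSO, with no overlap. The fold change of the counts was -0.19 (SE 0.117, 95% interval -0.48 to 0.11, edgeR adjusted p = 0.379), in a fit of 4 libraries where 2.69% of transcripts were called. The interval spans 0.715 to 1.08 times the control level. Both DMH1 libraries were deeper (59915591 and 51003928 counts) than both 0.2% DMSO libraries (19312756 and 22729492 counts). With every library thinned to the smallest, the fold change was -0.18 (edgeR adjusted p = 0.366). limma gave -0.40 on log2(TPM + 1) and on log2(TPM + 0.1) (adjusted p = 0.0778 and 0.0832), where the median of all transcripts was -0.129 and -0.183.

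Read against the other controls, both inhibitors gave other answers. Against mock the level was 2.04-fold lower after SB431542 (-1.03, adjusted p = 4.82e-05, 31.7% called) and 2.05-fold lower after DMH1 (-1.04, adjusted p = 2.99e-05, 35.3% called), both in the fit of all libraries. Against the DMSO control of the other inhibitor, SB431542 did not pass the threshold (-0.16, adjusted p = 0.298, 15% called), and DMH1 did (-0.34, adjusted p = 0.0408, 15.5% called). The DMH1 call against 0.4% DMSO was lost when either library of DMH1, 0.4% DMSO, SB431542 or mock was left out, with adjusted p-values between 0.059 and 0.207. For SB431542 against 0.2% DMSO, limma on log2(TPM + 1) made a call (-0.35, adjusted p = 0.0182).

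No difference between the inhibitors in *chordin* passed the test. The effect of SB431542 minus that of DMH1 was -0.15 (SE 0.138, 95% interval -0.46 to 0.15, edgeR adjusted p = 0.597, 3.76% called). The direct comparison of DMH1 with SB431542 gave -0.01 (SE 0.0973, 95% interval -0.23 to 0.20, adjusted p = 0.967, 15.6% called). The interval of the direct comparison spans 0.855 to 1.15 times the SB431542 level.

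In order of mean level, rActivin A (222 ± 10.3 CPM) was lowest, then rBMP4 (406 ± 36.0), DMH1 (440 ± 17.8), SB431542 (443 ± 25.2), 0.2% DMSO (497 ± 63.9), 0.4% DMSO (556 ± 21.9) and mock (903 ± 1.41). Of these neighbours only the first and the last step passed the test. The steps between rBMP4 and DMH1 (-0.12, adjusted p = 0.393, 33.9% called), DMH1 and SB431542, SB431542 and 0.2% DMSO, and 0.4% DMSO and 0.2% DMSO did not. On the TPM scale the order of the middle groups changed, with 131 TPM after rBMP4 above 123 TPM after SB431542 and 119 TPM after DMH1, and 158 TPM in 0.2% DMSO above 155 TPM in 0.4% DMSO.

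The 5 other genes of the pathway followed here are the ligands *bmp2/4* and *bmp5-8*, the receptors *bmpr1* (type I) and *bmpr2* (type II) and the transducer *smad1/5/8*. After rBMP4 1 of the 5 rose and 1 fell relative to mock (of all transcripts 0.499% rose and 0.585% fell), after rActivin A 1 rose and 2 fell (13.4% rose and 15.9% fell), and by edgeR 0 of the 5 passed the test after either inhibitor relative to its own control. At an unadjusted p below 0.05 there were 2 of 5 after SB431542 and 3 of 5 after DMH1, beside 7.19% and 26.4% of all transcripts. DESeq2 called 1 of 5 after each, beside 1.35% and 12.5% of all transcripts. These were *smad1/5/8* after SB431542 (0.32, adjusted p = 0.0345) and *bmpr2* after DMH1 (-0.53, adjusted p = 0.00315). The median fold change of the list was 0.17 for rBMP4 and -0.26 for rActivin A, beside medians over all transcripts tested of 0.0037 and -0.037.

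*bmp2/4*, the ligand whose product Chordin binds, fell with *chordin* after both ligands. It was 21.8 and 16.8 CPM in rBMP4 and 31.3 and 32.1 CPM in rActivin A, against 78.7 and 78.6 CPM in mock. The fold change was -2.02 after rBMP4 (edgeR adjusted p = 8.51e-05) and -1.32 after rActivin A (adjusted p = 0.000224). The order of the ligands was thus the opposite of that of *chordin*, with *bmp2/4* higher after rActivin A than after rBMP4 (0.70, adjusted p = 0.00418).

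*bmp2/4* did not share the difference among the controls. It averaged 80.1 ± 4.19 CPM in 0.2% DMSO and 78.3 ± 1.58 CPM in 0.4% DMSO, against 78.7 ± 0.0116 CPM in mock, and the fold changes of 0.03 and -0.01 had adjusted p-values of 0.902 and 0.978. The high level in mock was therefore not common to the 2 genes. After the inhibitors *bmp2/4* averaged 104 ± 3.69 CPM in SB431542 and 101 ± 5.69 CPM in DMH1, above their own controls but without a call (adjusted p = 0.28 and 0.138). In the fit of all 14 libraries both were called higher against the other controls. SB431542 gave 0.40 against mock (edgeR adjusted p = 0.0161, 31.7% called) and 0.37 against 0.2% DMSO (0.0419, 15% called). DMH1 gave 0.36 against mock (0.0241, 35.3% called) and 0.36 against 0.4% DMSO (0.0446, 15.5% called). The calls against the DMSO controls lay close to the threshold.

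*bmp5-8*, the other BMP ligand, shared part of it. It averaged 97.7 ± 11.1 CPM in 0.2% DMSO and 118 ± 8.53 CPM in 0.4% DMSO, against 145 ± 11.2 CPM in mock. It was lower than mock in 0.2% DMSO (-0.57, edgeR adjusted p = 0.00269) and, close to the threshold, in 0.4% DMSO (-0.30, adjusted p = 0.0446). That call was lost when either library of mock, 0.4% DMSO, DMH1, rBMP4 or SB431542 was left out (adjusted p between 0.0564 and 0.257), with the replicate block (0.0533), with thinned libraries (0.091) and in a fit of the 6 control libraries (0.103). *bmp5-8* was 0.34 lower on the log2 scale in rActivin A than in mock (adjusted p = 0.023, where 29.3% of transcripts were called). The call was lost without mock replicate 1 (-0.26) or rActivin A replicate 2 (-0.29). It was also lost in a fit of the 4 libraries compared (-0.34, edgeR adjusted p = 0.0773) and with a minimum log2 fold change of 1. After rBMP4 *bmp5-8* did not pass the test against mock (0.17, adjusted p = 0.919). Against 0.2% and 0.4% DMSO, rActivin A gave no call (0.23 and -0.04, adjusted p = 0.145 and 0.817). Against the same controls rBMP4 was called higher (0.73 and 0.45, adjusted p = 0.000873 and 0.00641, where 19.9% and 29.7% of transcripts were called).

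*bmpr2*, the type II receptor, rose after the ligands and was lower in 0.4% DMSO. It averaged 96.8 ± 9.33 CPM in rBMP4 and 86.3 ± 3.15 CPM in rActivin A, against 62.4 ± 0.742 CPM in mock (0.64, edgeR adjusted p = 0.00884, and 0.46, adjusted p = 0.00551). The call after rBMP4 was lost without mock replicate 1 (adjusted p = 0.113), mock replicate 2 (0.0888) or rBMP4 replicate 1 (0.0795). With limma on log2(TPM + 1) neither call was made (adjusted p = 0.109 after rBMP4 and 0.052 after rActivin A). Relative to 0.2% and 0.4% DMSO, *bmpr2* was called higher in rBMP4 (0.85 and 1.24, edgeR adjusted p = 0.000155 and 1.79e-05). It was also called higher in rActivin A (0.69 and 1.08, adjusted p = 0.000745 and 4.36e-05, where 16.9% and 21.2% of transcripts were called). The size of the rise thus depended on the control. *bmpr2* was lower in 0.4% DMSO than in mock (-0.61, adjusted p = 0.000461). *bmpr1*, the type I receptor, averaged 150 ± 14.1 CPM in rBMP4 and 125 ± 19.1 CPM in rActivin A, against 147 ± 24.1 CPM in mock (adjusted p = 1 and 0.364). *smad1/5/8*, which carries the signal to the nucleus, averaged 538 ± 19.3 CPM in rBMP4 and 347 ± 22.4 CPM in rActivin A, against 413 ± 14.4 CPM in mock (adjusted p = 0.142 and 0.0686). Against 0.2% and 0.4% DMSO, *smad1/5/8* was called higher in rBMP4 (0.42 and 0.64, edgeR adjusted p = 0.0119 and 0.000754, where 19.9% and 29.7% of transcripts were called). It was not called in rActivin A against either. Its level in rActivin A was below that in rBMP4 (-0.65, edgeR adjusted p = 0.00203, 27.5% called).

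**Figure D3:**
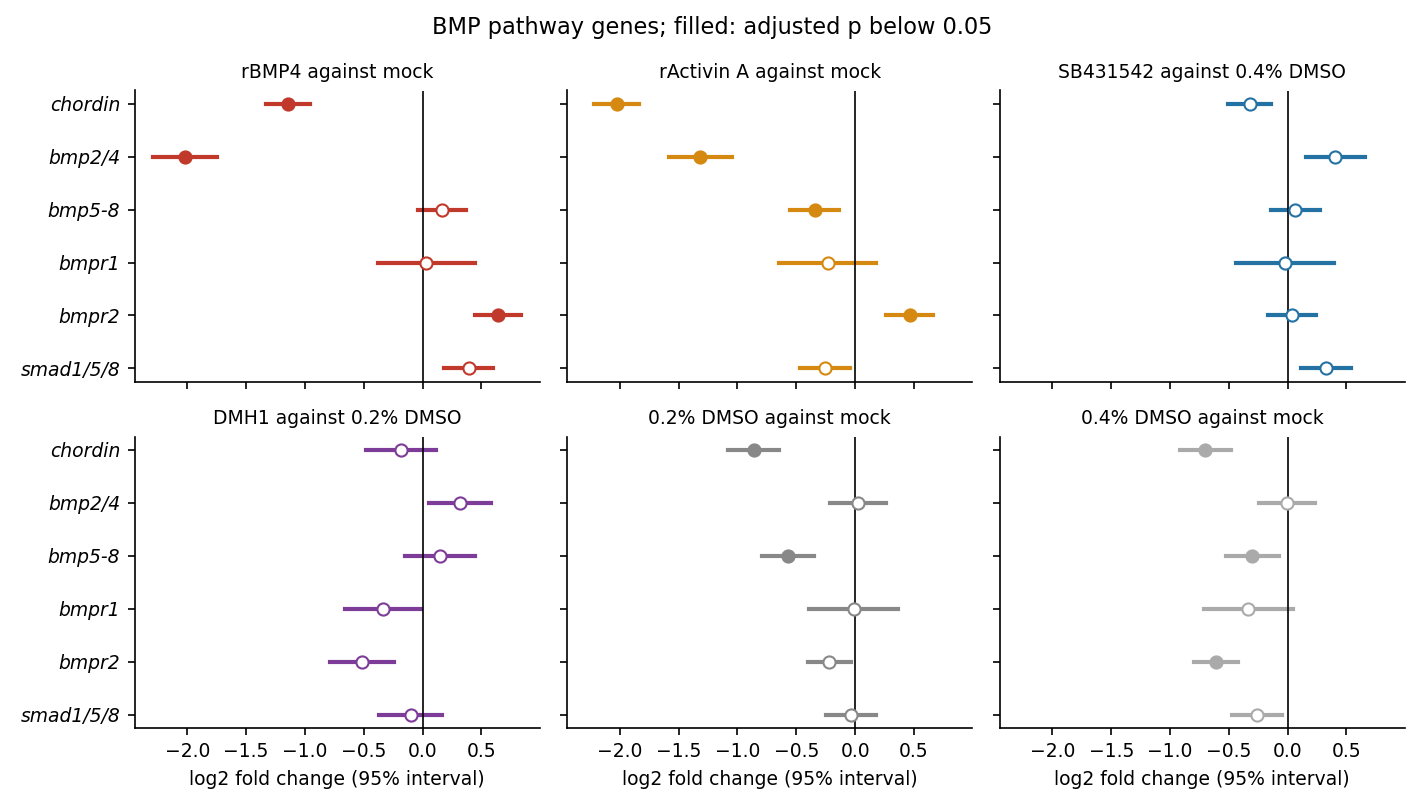
Log2 fold change of *chordin* and the 5 other BMP pathway genes, with the 95% interval as a line and filled symbols at an adjusted p below 0.05, in 6 comparisons. Both *chordin* and *bmp2/4* are filled and left of 0 for the ligands, while in the DMSO controls against mock *chordin* lies at -0.86 and -0.70 and *bmp2/4* at 0.03 and -0.01.

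Since both are expressed per length in TPM, the ratio of *chordin* to *bmp2/4* could be read within each library. It averaged 20.5 ± 1.94 in rBMP4 and 6.78 ± 0.431 in rActivin A, against 11.1 ± 0.0187 in mock. It was 4.13 ± 0.0877 in SB431542, against 6.87 ± 0.409 in 0.4% DMSO, and 4.23 ± 0.0677 in DMH1, against 5.98 ± 0.458 in 0.2% DMSO. No ranges overlapped within these comparisons, the rBMP4 ratio being the highest and the inhibitors' the lowest of the series. The lower ratio in rActivin A held against mock only. Its libraries (7.08 and 6.47) overlapped those of 0.4% DMSO (6.58 and 7.16) and lay above those of 0.2% DMSO (6.31 and 5.66). The exact permutation test of 2 against 2 libraries cannot go below p = 0.333, so these ratios are a description.

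The ratio of *chordin* to *bmp5-8* followed another order. It was 0.984 ± 0.0268 in rBMP4 and 0.771 ± 0.0184 in rActivin A, against 2.46 ± 0.190 in mock. It was 1.42 ± 0.0331 in SB431542, against 1.86 ± 0.0674 in 0.4% DMSO, and 1.59 ± 0.0272 in DMH1, against 2.00 ± 0.0221 in 0.2% DMSO. In each of the 4 treatments the ratio was thus below that of its own control in both libraries.

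**Figure D4:**
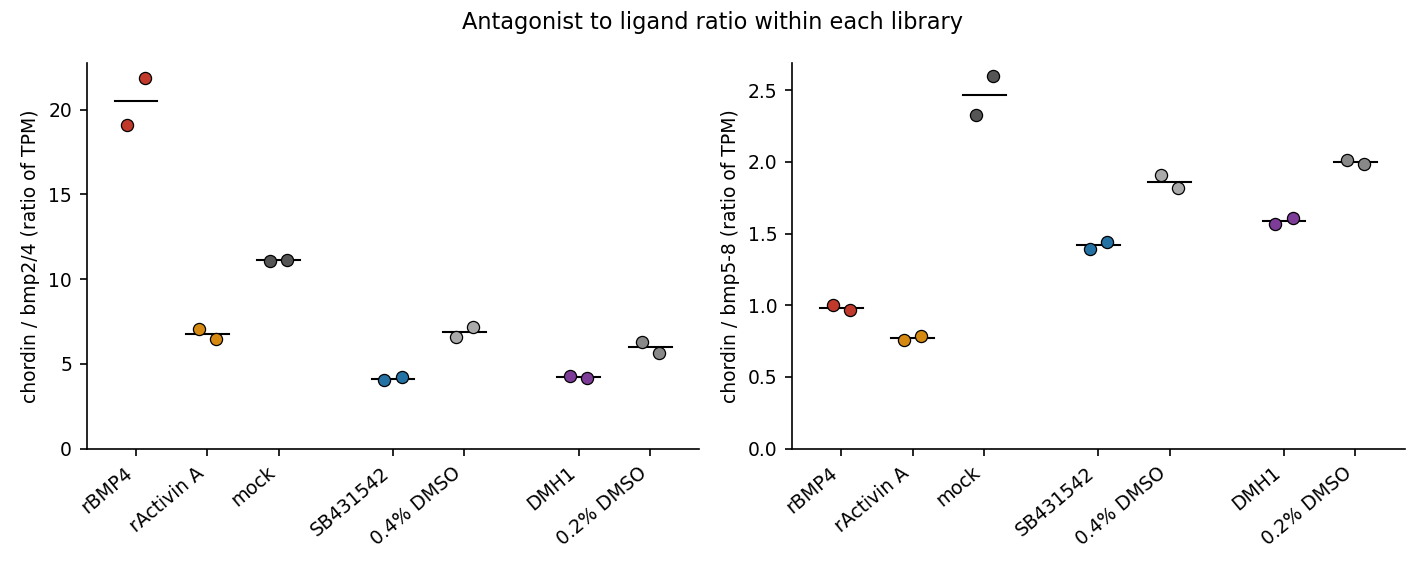
Ratio of *chordin* to *bmp2/4* (left panel) and to *bmp5-8* (right panel) within each library, from deposited TPM, with points for the 2 replicates and a line at their mean. The ratio to *bmp2/4* is 20.5 in rBMP4, above 11.1 in mock, while the ratio to *bmp5-8* is lower in all 4 treatments than in their controls.

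The transcripts whose pattern over the 14 libraries was most like that of *chordin* were sought among the 10313 transcripts averaging at least 10 CPM, by Pearson's r of log2 CPM. OFUSG17445.1 was most alike (r = 0.964) and OFUSG08631.1 next (r = 0.955), and 13 transcripts had an r of at least 0.9, beside a median of 0.0293. The most opposite were OFUSG12534.2 (r = -0.878) and OFUSG11341.1 (r = -0.873). The files and tables used here give these identifiers no gene names. The points share group and library depth, so r is a description and no p is given.

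OFUSG17445.1 was 444 and 436 CPM in rBMP4 and 129 and 169 CPM in rActivin A, against 1034 and 1129 CPM in mock. OFUSG08631.1 was 62.4 and 59.3 CPM in rBMP4 and 48.9 and 38.9 CPM in rActivin A, against 148 and 144 CPM in mock. Like *chordin*, both were highest in mock and lowest in rActivin A. Both were picked by r over these same libraries, so sharing these extremes is part of that choice and no separate result. Without the 2 libraries farthest from the median of *chordin*, rActivin A replicate 2 and mock replicate 2, r was 0.943 and 0.918. Replicate 1 of both groups stayed in, so these values do not show whether the likeness holds outside mock and rActivin A. The pathway genes were less alike, with an r of 0.509 for *bmp2/4*, 0.27 for *bmp5-8*, 0.179 for *bmpr1*, 0.157 for *smad1/5/8* and -0.361 for *bmpr2*. Without the same 2 libraries these were 0.451, 0.138, -0.254, 0.0828 and -0.327, so *bmpr1* changed sign.

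**Figure D5:**
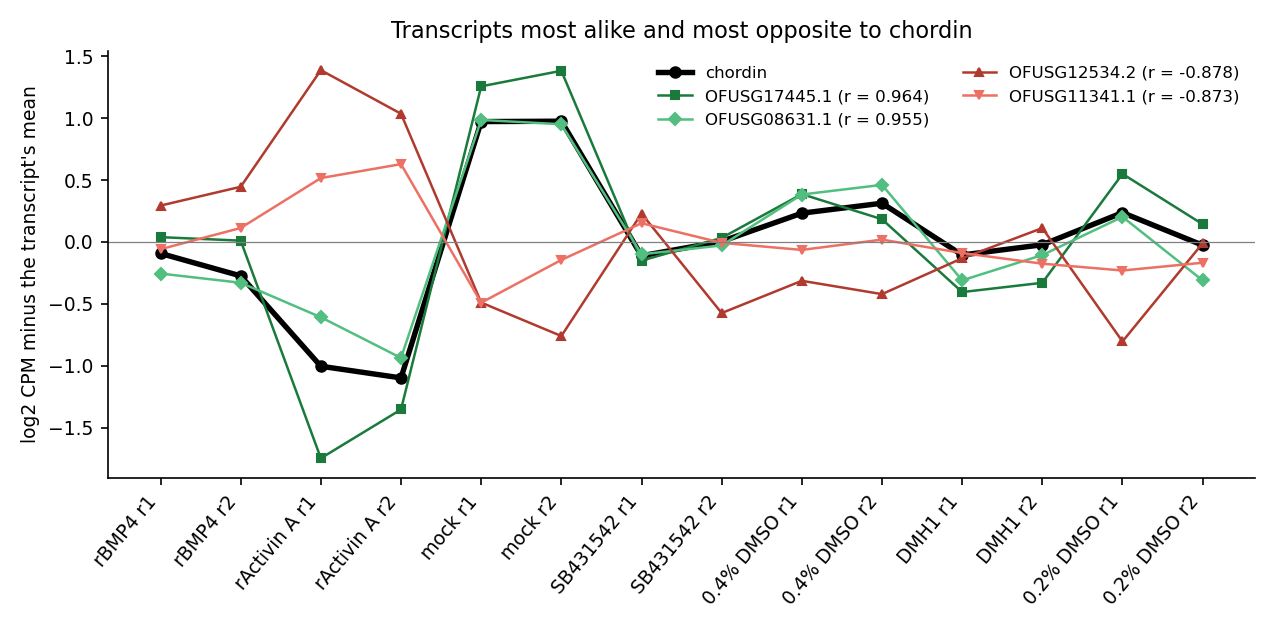
Log2 CPM of *chordin* (black) and of the 2 most alike (green) and 2 most opposite (red) transcripts in each of the 14 libraries, each centred on its own mean. The green lines follow *chordin* up in mock and down in rActivin A, with r of 0.964 and 0.955, and the red lines run the other way.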

How the data were processed

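Whole blastulae of 14 samples were measured by strand-specific poly(A) RNA-seq. The authors trimmed reads and assigned them to annotated transcripts with kallisto 0.46.2, and deposited 1 file per library with estimated counts and TPM. The estimated counts of the authors are not normalised and were rounded here. The TPM of the authors correct for transcript length and share 1 total per library, and other deposited columns hold the length and effective length of each transcript. No genome build is named in those sources. The authors used DESeq2 1.26.0 for their own comparisons.

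Counts were tested with the quasi-likelihood test of edgeR 4.0.16 in R 4.3.3 after filterByExpr and TMM, and p-values were adjusted by Benjamini-Hochberg across every transcript in the fit. The ligand and SB431542 comparisons came from a fit of 10 libraries (5 residual degrees of freedom), DMH1 from 4 libraries (2) and the controls from all 14 (7). DESeq2 1.42.0, limma 3.58.1 on log2(TPM + 1) and log2(TPM + 0.1), scaling, filter, depth and left-out libraries were alternatives. Two-sided tests were used throughout. The comparisons of DMH1 with SB431542 and of rBMP4 with DMH1 were added after seeing the data. The fits were tested on simulated data.

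*chordin*, the pathway list and the comparisons were chosen with earlier results of these data known. The text names *chordin*, the 5 pathway genes the study pairs with identifiers, and the 2 most alike and 2 most opposite transcripts by r. Equal counts in the replicates of a group occurred in at most 3.46% of transcripts, so no library was counted as deposited more than once.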

Additional observations from a re-analysis of the deposited data

Results flagged for a closer look

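*bmpr2*, the type II BMP receptor, differed between SB431542 and DMH1 in its change relative to their own controls. It was 41.9 and 41.6 CPM in SB431542, against 41.1 and 40.5 CPM in 0.4% DMSO, and 38.4 and 37.1 CPM in DMH1, against 54.4 and 52.8 CPM in 0.2% DMSO. The controls themselves differed, with 0.4% DMSO below 0.2% DMSO (-0.39, edgeR adjusted p = 0.0139, 13.8% called). The treated groups did not pass the test against each other (DMH1 over SB431542 -0.15, edgeR adjusted p = 0.276, 15.6% called). The effect of SB431542 minus that of DMH1 was 0.54 on the log2 scale (SE 0.12, edgeR adjusted p = 0.0384 in the fit of all 14 libraries, where 3.76% of transcripts were called). The call was lost without mock replicate 1 or 2 (adjusted p = 0.0649 each), DMH1 replicate 1 (0.107) or 2 (0.133), SB431542 replicate 1 (0.147) or 2 (0.117), 0.4% DMSO replicate 1 (0.0589) or 2 (0.135) and rBMP4 replicate 1 (0.0502), with a difference between 0.51 and 0.56 in each. It was also lost with the replicate block (0.0552), with libraries thinned to the smallest (0.0889) and with limma on log2(TPM + 1) (0.0646). The same difference for *chordin* was -0.15 (adjusted p = 0.597).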

How the results depend on the processing

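The fall of *chordin* after rBMP4 and rActivin A relative to mock kept its direction and call in every alternative fit of the mock comparison, with log2 fold changes of -1.25 to -1.07 and -2.11 to -1.98. With 0.2% DMSO as control the rBMP4 value was -0.29 and not called. With a minimum log2 fold change of 1, the calls of rActivin A against rBMP4 (-0.88), 0.2% DMSO against mock (-0.86) and 0.4% DMSO against mock (-0.70) were not made. SB431542 became a call with DESeq2 (-0.33) or mock as control (-1.03), and DMH1 with mock (-1.04) or 0.4% DMSO (-0.34). On the TPM scale limma turned 0.4% DMSO against 0.2% DMSO to -0.0225 and -0.0226 and the difference between the inhibitor effects to 0.0740 and 0.0745 (pseudocounts 1 and 0.1), and rBMP4 against DMH1 to 0.138 and 0.139. DMH1 against SB431542, near 0, turned to 0.0117 on library totals, 0.0113 on gene sums, and 0.0356, 0.021 and 0.0516 without DMH1 replicate 1, rActivin A replicate 1 and SB431542 replicate 2. The TPM scale moved the median of all transcripts by up to 0.209. The cause of these turns was not tested. The alike transcripts OFUSG17445.1 and OFUSG08631.1 had an r of 0.976 and 0.964 over the 7 group means and a rho of 0.890 and 0.934. They stayed the most alike without the minimum of 10 CPM, where OFUSG24151.1 (r = -0.915) and OFUSG23287.1 (-0.896), averaging 1.28 and 2.09 CPM, became the most opposite. With that minimum, the opposite transcripts OFUSG12534.2 and OFUSG11341.1 had an r of -0.9251 and -0.9062 over the 7 group means. Their rho was -0.8945 and -0.7055, so OFUSG11341.1 was less opposite by rank.

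Leaving out each library in turn gave -1.25 to -1.07 for rBMP4, -2.11 to -1.98 for rActivin A, -0.96 to -0.78 for rActivin A against rBMP4, -0.38 to -0.27 for SB431542, -0.32 to -0.065 for DMH1, -1.002 to -0.74 for 0.2% DMSO against mock, -0.74 to -0.66 for 0.4% DMSO against mock, 0.038 to 0.30 between the DMSO controls, -0.29 to -0.032 for the inhibitor difference and -0.061 to 0.052 for DMH1 against SB431542.

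Counts of called transcripts moved more. They ran over the alternatives from 111 to 540 for rBMP4 (254 as reported), 3178 to 8354 for rActivin A (6856), 2848 to 7932 for rActivin A against rBMP4 (6449), 51 to 418 for SB431542 (130), 0 to 3810 for DMH1 (627), 2264 to 6795 for 0.2% DMSO against mock (5511), 3543 to 8599 for 0.4% DMSO against mock (7590), 862 to 4738 between the DMSO controls (3428) and 87 to 2448 for the inhibitor difference (935).

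No pairing by replicate number was seen over all transcripts together, where the correlation of same-numbered deviations was -0.0182 to 0.0562 over 21 pairs of groups. This correlation does not test a pairing limited to part of the transcripts. The fit with the replicate block gave -1.15 for rBMP4 and -2.03 for rActivin A, and 0 calls by edgeR for DMH1, with 5018 transcripts at an unadjusted p below 0.05 and 3760 calls by DESeq2 without the block. With the block the call of DMH1 against 0.4% DMSO was lost (adjusted p = 0.0548).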
